A study of Mus musculus with 10 samples.

Results

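The 8 genes examined, called anchor genes here, encode proteins of several kinds. They are the ankyrins Ank1, Ank2 and Ank3, the spectrins Sptan1 and Sptbn1, the fibroblast growth factor homologous factors (FHFs) Fgf12 and Fgf13, and Tmem65. Ankyrins and spectrins tie membrane proteins to the cytoskeleton, FHFs bind sodium channels, and Tmem65 is a membrane protein of the junction between heart cells. The 8 genes were picked by symbol out of the 48397 gene symbols counted, and 8 of 8 had enough reads to be tested. RNA was sequenced from left atria of wild-type mice. The groups were TAC (transverse aortic constriction, a narrowing of the aorta that makes the heart pump against a higher pressure) and Sham surgery, each taken 2 weeks after the operation, with 5 libraries per group. The design text adds that the mice were male, of the C57BL/6J strain and 2 months old at surgery. It also names the left appendage where the sample labels name the left atrium. Whether each library stands for its own animal is not stated, so a p-value reflects the spread between libraries, and part of that spread may be technical.

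Ankyrins are adaptors: a domain of repeats holds membrane proteins such as sodium channels, the sodium-calcium exchanger and the sodium pump, and another domain binds beta-spectrin. Spectrins are long rods built from an alpha and a beta chain that join end to end through short actin filaments into a mesh under the membrane. FHFs resemble fibroblast growth factors in sequence, but stay inside the cell and bind the tail of voltage-gated sodium channels, where they shift channel inactivation. In people, loss-of-function variants of ANK2 are a known cause of arrhythmia.

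Levels are given as CPM (reads of a gene relative to the total of its library) after scaling by the trimmed mean of M-values (TMM), which assumes that most genes do not differ. Differences are log2 fold changes, TAC over Sham, with their standard error (SE). Calls rest on edgeR's quasi-likelihood test over 15175 genes, with an adjusted p (Benjamini-Hochberg) below 0.05. Total counts over genes ran from 29493200 to 41358617 in TAC libraries and from 17117306 to 43956384 in Sham libraries. The 8 genes drew between 770 reads (Fgf13) and 36103 reads (Sptbn1) in any single library, so none was near the detection limit. When counts were scaled to the library total alone, the median log2 fold change of all genes moved to 0.37, against 0.01 with TMM, and 80.1% of calls were higher in TAC libraries, against 50.9%. Mitochondrially encoded genes took 11.0% ± 2.10 of gene counts in TAC libraries and 16.3% ± 1.42 in Sham libraries (SD, n = 5 each).

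Of the 8 genes, 7 fell and 1, Sptan1, rose in TAC atria; with library totals alone as the scale, 4 fell, Sptan1 rose, Ank3 and Fgf12 were no longer called, and Sptbn1 turned to the other side of 0 without a call. In all genes tested, 56.8% were called, 27.9% as lower and 28.9% as higher in TAC libraries. The median log2 fold change was -0.68 for the 8 genes and 0.01 for all genes tested. The TAC and Sham ranges of CPM did not overlap for 8 of 8 genes, which was so for 41.7% of all genes tested. With TMM scaling the largest falls were those of Tmem65, Fgf13 and Ank2, and the smallest was that of Sptbn1.

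**Figure D1:**
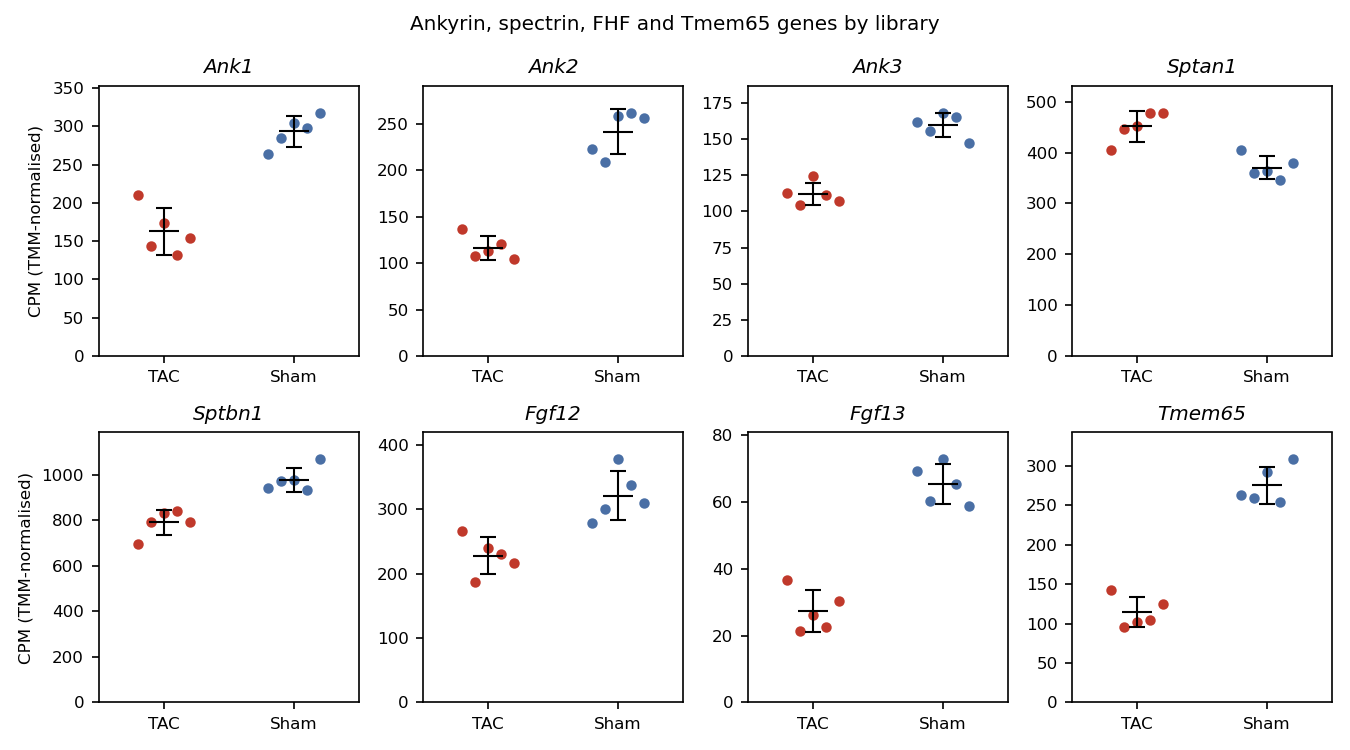
Each panel plots 1 gene, with TMM-normalised CPM on the vertical axis and the 5 TAC libraries left of the 5 Sham libraries; points are libraries, the dash is the mean and the whisker its SD. In every panel the TAC and Sham points are apart, with TAC below Sham in 7 panels and above it for Sptan1, where the nearest TAC and Sham points almost touch.

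Ank2, or ankyrin-B, places the sodium-calcium exchanger and the sodium pump in the membrane of heart cells. It had 137.4, 107.3, 113.3, 120.4 and 104.2 CPM in TAC replicates 1 to 5, against 223.2, 209.5, 258.5, 262.0 and 256.9 CPM in Sham replicates 1 to 5. The highest TAC library stayed well below the lowest Sham library. The means were 117 ± 13.2 CPM in TAC and 242 ± 24.0 CPM in Sham (SD, n = 5 each), which is -1.05 on the log2 fold change scale (SE 0.10, adjusted p = 6.4e-06). The gene lies on the minus strand of chromosome 3, at chr3:126921612-127499350 in GRCm38, and 0.52% of its exonic bases are shared with the antisense gene Gm16958.

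Ank1, or ankyrin-R, is best known from the red cell membrane; a short form of it in muscle holds the sarcoplasmic reticulum to the myofibril. Its CPM values were 209.6, 143.7, 174.0, 132.4 and 153.6 in TAC replicates 1 to 5, against 263.7, 285.0, 304.6, 297.3 and 317.3 in Sham replicates 1 to 5. TAC replicate 1 stood above the other TAC libraries but below each Sham library. The means were 163 ± 30.4 CPM in TAC and 294 ± 20.4 CPM in Sham (SD, n = 5 each), which is -0.85 on the log2 fold change scale (SE 0.12, adjusted p = 0.00011). The counts are per gene and do not separate the short muscle form from the long one. The gene lies at chr8:22974844-23150497 on the plus strand, and 6.37% of its exonic bases are shared with the antisense gene Gm15816, whose reads cannot be told apart because the strand setting of the counting is not known.

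Ank3, or ankyrin-G, brings sodium channels to the intercalated disc, the junction between heart cells. Its fall was the smallest of the ankyrins under either scale. Ank3 had 112.9, 104.6, 124.3, 111.1 and 107.1 CPM in TAC replicates 1 to 5, against 161.7, 155.7, 168.2, 165.4 and 147.6 CPM in Sham replicates 1 to 5. Libraries of each group lay close together, with a coefficient of variation of 6.79% in TAC and 5.15% in Sham. The log2 fold change was -0.51 (SE 0.07, adjusted p = 7.9e-05) with TMM and -0.15 (adjusted p = 0.12) with library totals alone. The gene covers chr10:69398773-70027438 on the plus strand.

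The ratio of 2 genes within a library does not depend on the scaling factor, and 8 ratios were set up, each compared between groups by an exact two-sided permutation test over samples. The smallest p this test can give with 5 against 5 libraries is 0.00794. Ank2 reads per Ank3 read came to 1.22, 1.02, 0.912, 1.08 and 0.973 in TAC replicates 1 to 5, against 1.38, 1.35, 1.54, 1.58 and 1.74 in Sham replicates 1 to 5. The ratio was lower in each TAC library than in each Sham library, with a difference of -0.54 on the log2 scale (exact permutation p = 0.00794, adjusted p = 0.0159). Between Ank1 and Ank3 the difference was -0.36 with overlapping groups (exact permutation p = 0.0397, adjusted p = 0.0529), and without TAC replicate 1 it was -0.45 (exact permutation, adjusted p = 0.0127). Between Ank1 and Ank2 it was 0.19, also with overlap (exact permutation p = 0.103), and without TAC replicate 4 it was 0.27 (exact permutation, adjusted p = 0.0381). Both the Ank1/Ank3 and the Ank1/Ank2 ratio stayed uncalled in 9 of the 10 fits that left out a library. A ratio shows unequal change and not which of its genes moved.

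**Figure D2:**
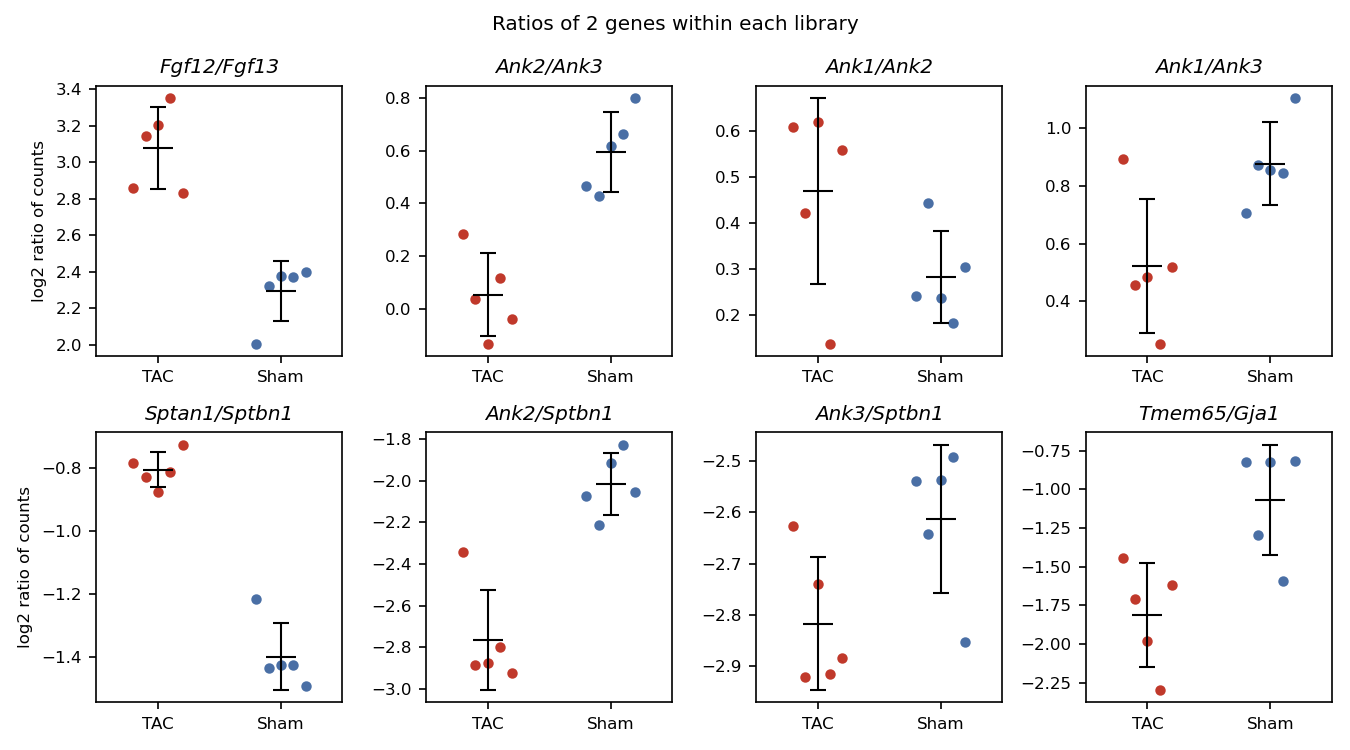
Each panel plots the log2 ratio of reads of 2 genes within a library on the vertical axis, with the 5 TAC libraries left of the 5 Sham libraries; points are libraries, the dash is the mean and the whisker its SD. The groups are apart for Fgf12/Fgf13 and Sptan1/Sptbn1, with TAC on top, and for Ank2/Ank3 and Ank2/Sptbn1, with TAC below.

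Sptan1 encodes alpha-II spectrin, the alpha chain of cells other than red cells, and Sptbn1 encodes beta-II spectrin, its usual partner, which carries the ankyrin-binding site. The chains of this pair moved in opposite directions with TMM scaling, and with library totals alone Sptan1 still rose while Sptbn1 showed a log2 fold change of 0.060 without a call. Sptan1 had 404.5, 446.4, 451.9, 476.8 and 477.8 CPM in TAC replicates 1 to 5, against 404.3, 359.6, 363.0, 346.1 and 378.6 CPM in Sham replicates 1 to 5. TAC replicate 1, the lowest of its group, and Sham replicate 1, the highest of its group, were nearly level, while the other libraries of the groups lay further apart. The means were 451 ± 29.8 CPM in TAC and 370.3 ± 22.2 CPM in Sham (SD, n = 5 each), which is 0.29 on the log2 fold change scale (SE 0.08, adjusted p = 0.0089). Without TAC replicate 1 it was 0.34 (adjusted p = 0.0017).

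Sptbn1, the most abundant of the 8 genes in reads, had 696.7, 793.3, 830.4, 837.8 and 791.0 CPM in TAC replicates 1 to 5, against 939.5, 972.9, 975.9, 930.4 and 1066.1 CPM in Sham replicates 1 to 5. The groups were apart, though the means of 789.9 ± 56.2 CPM in TAC and 977 ± 53.7 CPM in Sham (SD, n = 5 each) differed by a smaller fold than those of the ankyrins. The log2 fold change was -0.31 (SE 0.09, adjusted p = 0.0098), and with library totals alone it was 0.060 (adjusted p = 0.59). Sptan1 reads per Sptbn1 read came to between 0.544 and 0.604 in TAC libraries and between 0.355 and 0.430 in Sham libraries. That ratio was higher in each TAC library, by 0.59 on the log2 scale (exact permutation p = 0.00794, adjusted p = 0.0159), whatever the scaling. Sptan1 lies at chr2:29965560-30031451 on the plus strand and Sptbn1 at chr11:30099395-30268175 on the minus strand, with 0.766% of its exonic bases shared with the antisense gene Gm29237.

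The ankyrins were also set against the beta chain that binds them. Ank2 reads per Sptbn1 read came to between 0.132 and 0.197 in TAC libraries and between 0.215 and 0.282 in Sham libraries, with no overlap and a difference of -0.75 on the log2 scale (exact permutation p = 0.00794, adjusted p = 0.0159). For Ank3 over Sptbn1 the groups overlapped, from 0.132 to 0.162 in TAC libraries and from 0.138 to 0.178 in Sham libraries. The difference was -0.21 (exact permutation p = 0.0556, adjusted p = 0.0635). It passed the threshold without TAC replicate 1, at -0.25, and without Sham replicate 5, at -0.26.

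Fgf13 is the prevailing FHF of the mouse ventricle, where it binds sodium channels, and FGF12 that of the human ventricle. Both Fgf12 and Fgf13 fell with TMM scaling, Fgf13 by the larger fold, and with library totals alone Fgf13 alone was still called. Fgf13 had 36.6, 21.3, 26.1, 22.6 and 30.4 CPM in TAC replicates 1 to 5, against 69.4, 60.3, 72.8, 65.5 and 58.9 CPM in Sham replicates 1 to 5. The highest TAC value, in replicate 1, was well under the lowest Sham value. The means were 27.4 ± 6.26 CPM in TAC and 65.4 ± 5.90 CPM in Sham (SD, n = 5 each), which is -1.25 on the log2 fold change scale (SE 0.14, adjusted p = 2.1e-05). The gene lies at chrX:59062145-59568071 on the minus strand.

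Fgf12 had 265.7, 187.7, 240.4, 230.6 and 216.7 CPM in TAC replicates 1 to 5, against 278.6, 300.8, 377.4, 338.5 and 310.6 CPM in Sham replicates 1 to 5. TAC replicate 1 came close to Sham replicate 1 without reaching it, and TAC replicate 2 was the lowest. The means were 228 ± 28.9 CPM in TAC and 321 ± 38.1 CPM in Sham (SD, n = 5 each). The log2 fold change was -0.49 (SE 0.11, adjusted p = 0.0024) with TMM and -0.13 (adjusted p = 0.25) with library totals alone. The gene lies at chr16:28160098-28753068 on the minus strand.

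The make-up of the FHF transcripts differed between groups, and this ratio does not depend on the scaling. Fgf12 reads per Fgf13 read came to 7.26, 8.83, 9.22, 10.2 and 7.12 in TAC replicates 1 to 5, against 4.01, 4.99, 5.19, 5.17 and 5.28 in Sham replicates 1 to 5. Each TAC library was above each Sham library, by 0.78 on the log2 scale (exact permutation p = 0.00794, adjusted p = 0.0159). Per length of exon, Fgf12 held 79.9% ± 1.64 of FHF transcripts in TAC libraries and 69.9% ± 1.99 in Sham libraries (SD, n = 5 each). The share of Fgf13 was 14.7% ± 2.04 in TAC libraries and 22.1% ± 2.00 in Sham libraries.

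**Figure D3:**
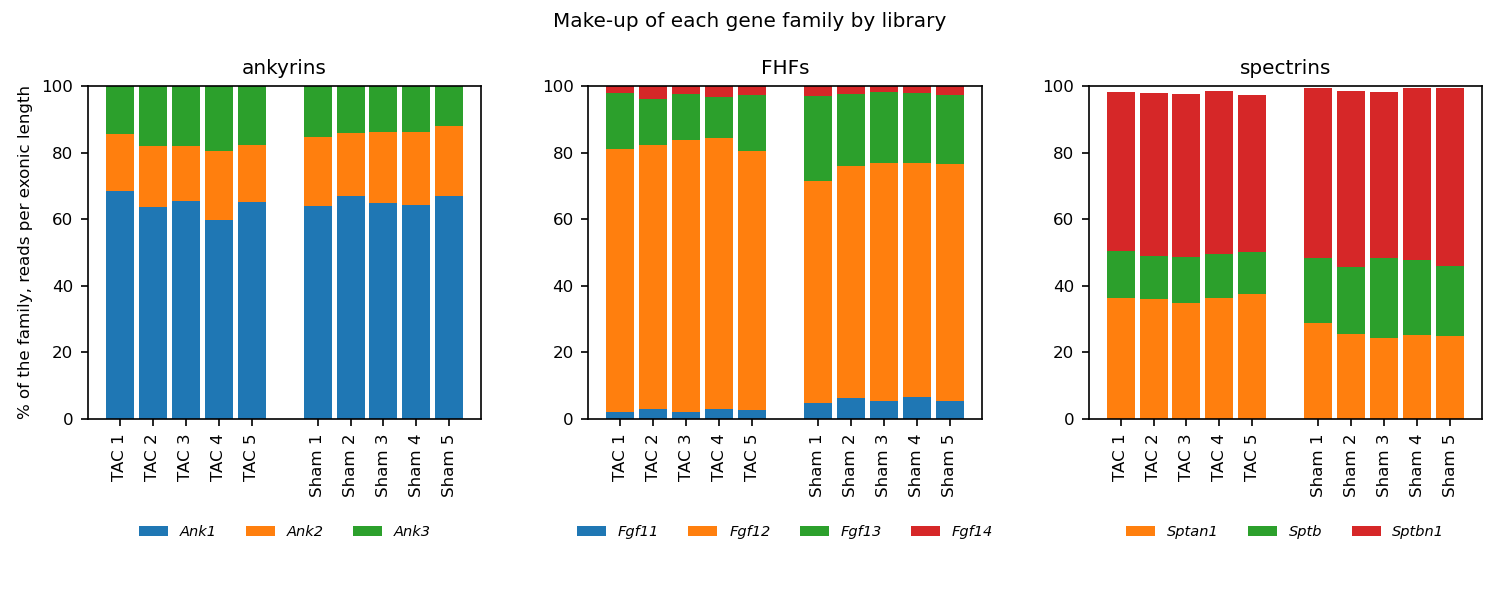
Stacked bars give the percent of each family's transcripts (reads per exonic base) held by each gene, for ankyrins, spectrins and FHFs, with 1 bar per library and the TAC libraries left of the Sham libraries; genes under 3% of a family in every library are not drawn. The Fgf12 part spans 77.8% to 81.8% in TAC libraries and 66.6% to 71.8% in Sham libraries, and the Sptan1 part spans 34.8% to 37.4% in TAC libraries and 24.4% to 28.8% in Sham libraries.

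Tmem65 is a membrane protein that in the mouse heart sits at the intercalated disc with the gap junction protein encoded by Gja1; a mitochondrial location has also been described for it. It had the lowest log2 fold change of the 8 genes. Tmem65 had 142.3, 96.0, 102.4, 105.0 and 124.6 CPM in TAC replicates 1 to 5, against 262.4, 258.6, 292.4, 253.6 and 308.0 CPM in Sham replicates 1 to 5. No TAC library came near the lowest Sham library. The means were 114 ± 19.1 CPM in TAC and 275 ± 23.9 CPM in Sham (SD, n = 5 each), which is -1.27 on the log2 fold change scale (SE 0.11, adjusted p = 5.7e-06). The gene lies at chr15:58782269-58823638 on the minus strand.

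Gja1 itself averaged 401 ± 73.0 CPM in TAC and 584 ± 118 CPM in Sham (SD, n = 5 each), with overlapping groups and a difference of -0.54 on the log2 scale (SE 0.16, adjusted p = 0.011) that was -0.18 (adjusted p = 0.33) with library totals alone. Tmem65 reads per Gja1 read came to between 0.204 and 0.367 in TAC libraries and between 0.332 and 0.568 in Sham libraries. The groups overlapped, and the difference was -0.74 on the log2 scale (exact permutation p = 0.0159, adjusted p = 0.0254). That call was lost when any of 5 libraries (TAC replicates 2, 3 and 5, Sham replicates 1 and 3) was left out, with an adjusted p of 0.0508 in each case (exact permutation).

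**Figure D4:**
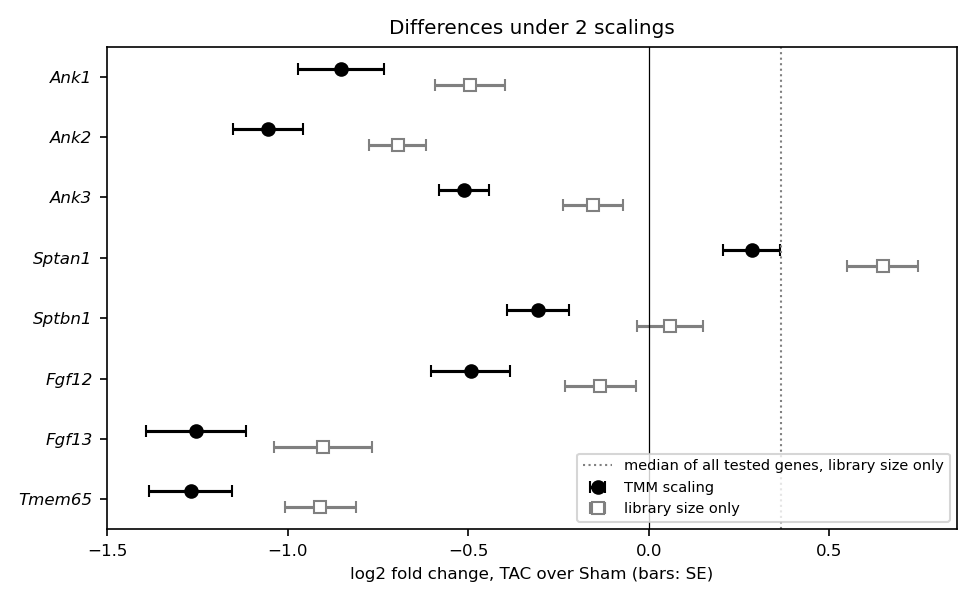
Log2 fold changes (TAC over Sham) of the 8 genes on the horizontal axis, with bars of 1 SE, under TMM scaling (filled circles) and under library totals alone (open squares); the dotted line is the median of all genes under the second scale, 0.37. TMM values run from -1.27 for Tmem65 to 0.29 for Sptan1, and those under library totals alone lie further right for each gene, with Sptbn1 at 0.060.

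Levels of different genes can be set side by side only per length of exon, here as TPM (counts divided by exon length and scaled to a common total), without TMM. On that scale Sptbn1 led with 145 ± 20.9 TPM in TAC and 129 ± 6.33 TPM in Sham (SD, n = 5 each). Fgf12 followed with 117 ± 9.82 TPM in TAC and 119.7 ± 12.1 TPM in Sham, and Sptan1 with 109 ± 15.9 TPM in TAC and 64.4 ± 7.40 TPM in Sham. The ranges of Sptbn1, Fgf12 and Sptan1 overlapped in TAC libraries, and those of Sptbn1 and Fgf12 in Sham libraries. Tmem65 stood at 57.4 ± 7.21 TPM in TAC and 100.7 ± 5.11 TPM in Sham, which put it under Sptan1 in TAC and above it in Sham, where its range overlapped that of Fgf12. Ank1 had 38.0 ± 3.81 TPM in TAC and 50.1 ± 0.95 TPM in Sham. Fgf13 had 21.6 ± 3.66 TPM in TAC and 37.8 ± 4.96 TPM in Sham. Ank2 and Ank3 came last, with 10.6 ± 0.63 and 10.3 ± 0.93 TPM in TAC libraries, where their ranges overlapped, and with 16.0 ± 1.04 and 10.6 ± 1.09 TPM in Sham libraries, where Ank2 was above Ank3 in each library. All annotated exons enter the length, including very long ones of Ank2 and Ank3 used in neurons, so their TPM may be too low.

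Because the tissue was bulk atrium, fewer cells of a type and less RNA per cell cannot be told apart. Of 10 cardiomyocyte markers, 8 fell and 2 rose, and their summed level ran from 46753 to 59894 CPM in TAC libraries and from 87362 to 101843 CPM in Sham libraries. Of 9 fibroblast markers, 6 rose and 1 fell, with a sum of 5967 to 13802 CPM in TAC libraries and 2190 to 2877 CPM in Sham libraries. All 8 macrophage markers rose, with a sum of 736 to 1218 CPM in TAC libraries and 301 to 526 CPM in Sham libraries. Of 8 mural cell markers 5 rose, of 8 endothelial markers 3 rose and 2 fell, and of 4 endocardial markers 1 fell. Of 6 erythroid markers tested 5 rose, and the list summed to between 300.2 and 2549 CPM in TAC libraries and between 138 and 303 CPM in Sham libraries. Of 6 Schwann cell and neuron markers tested 1 rose and 3 fell, of 5 adipocyte markers tested 1 rose and 4 fell, and of 7 epicardial markers 1 rose. Among all genes tested 28.9% rose and 27.9% fell. Some marker counts moved when a library was left out. The number of epicardial markers that rose then ran from 0 to 2, and that of adipocyte markers that fell from 2 to 4. For endocardial markers, 0 or 1 rose and 1 or 2 fell. No marker of these lists was at 0 in every library of a group. The part of this shift in the changes of the 8 genes was not tested.

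Set against the summed reads of the cardiomyocyte markers, the 8 genes did not all lie on the same side; these values are a description without a test, and the markers themselves changed. Per 1000 such reads, Ank1 had 3.16 ± 0.42 reads in TAC and 3.15 ± 0.11 reads in Sham (SD, n = 5 each), with overlapping ranges. Ank2 had 2.26 ± 0.03 reads in TAC and 2.60 ± 0.21 reads in Sham. Tmem65 had 2.22 ± 0.30 reads in TAC and 2.95 ± 0.19 reads in Sham. Neither overlapped, but the ranges nearly touched. The highest TAC and lowest Sham values were 2.294 and 2.314 for Ank2, and 2.665 and 2.695 for Tmem65. Fgf13, at 0.53 ± 0.10 reads in TAC and 0.71 ± 0.09 reads in Sham, overlapped. By contrast Ank3 had more, 2.19 ± 0.23 reads in TAC and 1.72 ± 0.16 reads in Sham, without overlap. Its lowest TAC value, 1.885, was close to its highest Sham value, 1.85. Sptbn1 had 15.5 ± 2.22 reads in TAC and 10.5 ± 0.36 reads in Sham, and Sptan1 had 8.88 ± 1.28 reads in TAC and 3.99 ± 0.38 reads in Sham, both without overlap. Fgf12, with 4.44 ± 0.35 reads in TAC and 3.46 ± 0.42 reads in Sham, overlapped.

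Within the TAC group, replicates 1 and 2 stood at opposite ends for several of the genes. TAC replicate 1 was the highest TAC library for 5 of the 8 genes (Ank1, Ank2, Fgf12, Fgf13 and Tmem65) and the lowest for both spectrins. It also had the highest sum of cardiomyocyte markers, 59894 CPM, and the lowest sum of fibroblast markers, 5967 CPM, of the TAC libraries. TAC replicate 2, the lowest TAC library for Ank3, Fgf12, Fgf13 and Tmem65, had the highest sum of fibroblast markers, 13802 CPM. Without TAC replicate 1, Fgf13 stood at -1.36, Tmem65 at -1.34, Ank2 at -1.10 and Ank1 at -0.94 on the log2 scale, and each was still called. The part of tissue make-up in this order was not tested.

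Promoter windows were at hand for 5 of the 8 genes (Ank2, Sptan1, Sptbn1, Fgf12 and Fgf13). Those of Sptan1, which rose, and Fgf12, which fell, are shown because they start closest to the annotated gene start without touching an annotated exon. Each is the 250 bases before a RefSeq transcription start in GRCm38.p6, 5′ to 3′ on the gene's strand. They lie at chr2:29965310-29965559 (plus strand) and chr16:28753244-28753493 (minus strand). Sptan1 has 1 such window and Fgf12 has 4. Capitals mark CCGGAA or TTCCGG, the core of ETS factor sites, and GGGCGG or CCGCCC, the GC box bound by SP factors.
Sptan1: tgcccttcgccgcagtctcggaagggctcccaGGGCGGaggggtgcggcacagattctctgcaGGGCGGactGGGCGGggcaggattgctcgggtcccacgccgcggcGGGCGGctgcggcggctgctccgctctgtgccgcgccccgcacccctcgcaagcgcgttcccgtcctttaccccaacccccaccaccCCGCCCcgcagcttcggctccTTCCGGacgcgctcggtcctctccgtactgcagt
Fgf12: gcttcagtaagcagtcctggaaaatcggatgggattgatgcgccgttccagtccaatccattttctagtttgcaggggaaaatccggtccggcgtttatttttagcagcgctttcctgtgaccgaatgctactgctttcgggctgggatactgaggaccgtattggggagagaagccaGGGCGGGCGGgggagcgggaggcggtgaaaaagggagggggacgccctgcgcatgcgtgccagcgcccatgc
The Sptan1 window has a GC content of 73.6%, with 5 GC boxes and 1 ETS core, and the Fgf12 window one of 58.4%, with 2 GC boxes that overlap and no ETS core. Of 32851 windows of the same length over all genes, 32.7% held a GC box and 12.0% an ETS core on either strand. Neither window held TATAAA, present in 12.4% of windows, GGAATG, the core of TEAD sites, in 12.6%, or CACGTG, an E-box, in 6.02%. Of the Fgf12 windows not shown, the one at chr16:28446076-28446325 held 1 ETS core and 1 TEAD core, and the others held neither. Which Fgf12 start the atrium uses was not tested. A match says only that these letters are present in the window.

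Other genes of the membrane skeleton were read from a list of 18 (the remaining spectrins, adducins, protein 4.1 genes, tropomodulins and relatives), of which 9 fell and 4 rose; with library totals alone 5 fell and 5 rose. The number that rose was 2 when TAC replicate 1, 2 or 5 or Sham replicate 4 or 5 was left out. The list's median log2 fold change was -0.37, against 0.01 for all genes tested. Among all genes tested 56.8% were called with TMM scaling, 27.9% as lower and 28.9% as higher. Tmod1, which caps the actin filaments of the mesh and of the sarcomere, fell to 213 ± 23.0 CPM in TAC, against 503 ± 34.2 CPM in Sham (SD, n = 5 each), a log2 fold change of -1.24 (adjusted p = 1.8e-06). Epb41 and Epb41l3, which encode protein 4.1 adaptors, had log2 fold changes of -1.25 and -1.44, whereas Epb41l2 of the same family rose by 0.88 on the log2 scale. Mpp1, a membrane scaffold, rose by 0.51.

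Sptb, the beta-I chain, known from red cells and also made by striated muscle, fell to 151 ± 8.77 CPM in TAC, against 281 ± 29.3 CPM in Sham (SD, n = 5 each), a log2 fold change of -0.90 (adjusted p = 7.4e-06). In transcripts per exonic base, Sptan1 held 36.2% ± 0.92 of all spectrin in TAC libraries and 25.7% ± 1.75 in Sham libraries. Sptbn1 held 48.3% ± 0.79 in TAC and 51.8% ± 1.36 in Sham, and Sptb 13.3% ± 0.59 in TAC and 21.5% ± 1.79 in Sham (SD, n = 5 each).

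Of 26 partners of ankyrins listed, 24 were tested, 10 fell and 4 rose, around a median of -0.25. Over all genes tested, 56.8% were called, 27.9% as lower and 28.9% as higher. Under library totals alone 5 of the listed genes fell and 10 rose. Kcnj11, the pore of the ATP-sensitive potassium channel, which Ank2 binds, had a log2 fold change of -1.04 (adjusted p = 1.2e-05). Ppp2r5a, a phosphatase subunit that Ank2 targets, had one of -0.61 (adjusted p = 3.4e-05). Ehd2 and Ehd3, of the EHD family, and Cd44, a matrix receptor, rose by 0.47, 0.63 and 0.64 on the log2 scale. The groups overlapped for each of these genes. In the same family Ehd4 had a log2 fold change of -0.34 (adjusted p = 0.0060) without overlap, which was 0.015 (adjusted p = 0.89) with library totals alone. Ehd1 was not called (0.17, adjusted p = 0.11). For Slc8a1, the sodium-calcium exchanger itself, the values were 269 ± 40.9 CPM in TAC and 293 ± 33.6 CPM in Sham, a log2 fold change of -0.12 without a call (adjusted p = 0.41) that was 0.24 with library totals alone.

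Of 14 FHF relatives and partners listed, 11 were tested, 4 fell and 2 rose, around a median of -0.28. Over all genes tested, 56.8% were called, 27.9% as lower and 28.9% as higher. Under library totals alone 3 of the listed genes fell and 4 rose. The number that rose was 1 when TAC replicate 3 or 5 or Sham replicate 1, 2, 4 or 5 was left out. Fgf11, another FHF, fell to 3.46 ± 0.48 CPM in TAC, against 12.7 ± 2.12 CPM in Sham (SD, n = 5 each), a log2 fold change of -1.88 (adjusted p = 2.3e-06). Fgf14 averaged 5.48 ± 0.81 CPM in TAC and 7.24 ± 1.003 CPM in Sham, a log2 fold change of -0.40 (adjusted p = 0.028), a call lost without TAC replicate 1, 3 or 5 or Sham replicate 1 or 5 (adjusted p up to 0.0748). With library totals alone Fgf14 stood at -0.037 on the log2 scale (adjusted p = 0.85). Scn10a and Scn4a are sodium channels better known from sensory neurons and skeletal muscle. Their log2 fold changes were -2.43 (adjusted p = 0.00017) and -1.32 (adjusted p = 0.0037). Scn10a had 2.95 ± 1.36 CPM in TAC and 16.0 ± 4.92 CPM in Sham. Scn4a had 13.6 ± 2.52 CPM in TAC and 33.9 ± 19.4 CPM in Sham, where replicate 3 reached 67.7 CPM. When a library was left out, Scn4a ran from -1.47 to -0.90 and kept its call.

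Of 5 genes around Tmem65 at the disc, 2 fell and 1 rose, around a median of -0.42. Under library totals alone none fell and 2 rose. For this list and the calpains below, the share called over all genes tested was 56.8%, with 27.9% lower and 28.9% higher. Tjp1, a junction scaffold, had a log2 fold change of -0.54 (adjusted p = 0.00019) with TMM and -0.18 (adjusted p = 0.14) with library totals alone. Of 10 genes of the calpain system, proteases that cut spectrin and ankyrins, and their inhibitor Cast, 4 rose and 2 fell, around a median of 0.00; under library totals alone 7 rose and none fell. Capn6, which lacks an active protease site, Capn10 and Capn2 rose by 1.69, 0.65 and 0.32 on the log2 scale. Cast and Capn1 had log2 fold changes of -0.29 and -0.27, which turned to 0.068 and 0.091 with library totals alone.

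**Figure D5:**
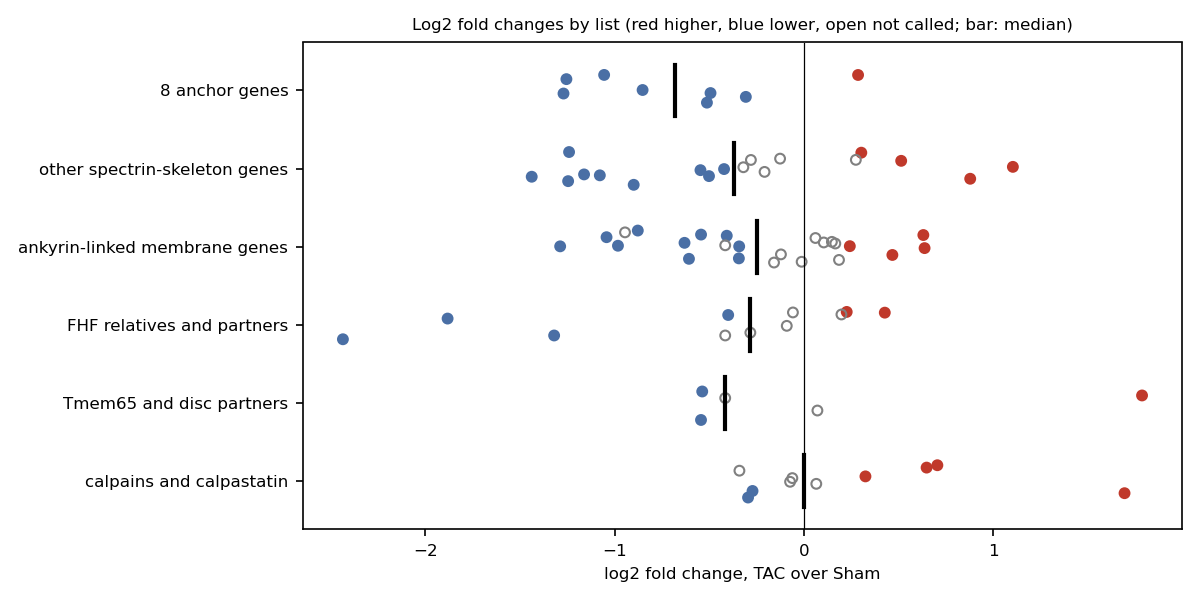
Each point is the log2 fold change (TAC over Sham, TMM scaling) of 1 tested gene, in rows for the 8 anchor genes and the lists of membrane skeleton, ankyrin partners, FHF relatives, Tmem65 partners and calpains; red points were called higher, blue points called lower, open points were not called, and a line marks each row's median. The medians are -0.68 for the 8 genes, -0.37, -0.25, -0.28, -0.42 and 0.00 for the lists.

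Genes with the most similar pattern to each of the 8 were found by Pearson's r of log2 CPM over the 10 libraries among 11894 genes; all points share the group difference, and r is a description only. Tmem65 was closest to Selenbp1 (r = 0.998) and Akap7 (r = 0.997), and Fgf13 to Pla2g5 (r = 0.996) and Rdh14 (r = 0.993). Ank2 was closest to Abr (r = 0.994), Ank1 to Cited4 (r = 0.993) and Ank3 to Tbx5 (r = 0.985), a transcription factor of the heart. Fgf12 was closest to Slc25a42 (r = 0.981), Sptbn1 to Hsd11b1 (r = 0.978) and Sptan1 to Slc2a13 (r = 0.977). With the group means removed, Slc25a42 and Hsd11b1 were again the closest to Fgf12 (r = 0.941) and Sptbn1 (r = 0.911). On that measure Ank3 was closest to Alas2 (r = 0.938) and Hbb-bs (r = 0.907), both red cell genes. TAC replicate 3, the TAC library with the most Ank3, also had the highest sum of erythroid markers, 2549 CPM, and without it the log2 fold change of Ank3 was -0.55 (adjusted p = 0.00012).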

How the data were processed

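RNA of 10 atrial libraries was measured by sequencing, and the deposited values are raw counts per gene symbol that the authors made without normalization, in 1 file per library. The submitters' processing notes name STAR, bcl2fastq and the build mm10 but no version. Which program counted the reads, with which strand setting and annotation, is not given in the sources used here. The design text names an RNeasy and a TruSeq kit and the sample labels an RNeasy Plus and a Nugen Trio kit. Tallies that name no gene stayed out of library sizes and tests: on average reads in no gene made up 3.76% of reads in TAC and 3.12% in Sham, ambiguous reads 5.79% and 4.31% of reads in those groups, reads aligned to several places 13.4% and 15.8%, and reads not aligned 4.62% and 4.12%.

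Groups came from the sample titles. edgeR 4.0.16 in R 4.3.3 (filterByExpr, TMM, robust glmQLFit, glmQLFTest, group as the only term) was fitted on 15175 genes, with Benjamini-Hochberg adjustment over all of them, and the SE is the fold change divided by the square root of F. The pipeline was tested on simulated data for this comparison on 15035 genes, with 200 genes set to change. There it recovered 25.4% of 1.5-fold, 75.8% of 2-fold and 93.8% of 4-fold changes, with 4.48% false calls. Its performance with 56.8% of genes changed, the share called here, was not tested. Ratios are of raw counts within a library, with p adjusted over 8 ratios. TPM used GENCODE M21 exon lengths, which matched 95.8% of symbols by name; promoter windows are RefSeq's. Likeness used log2 CPM with a prior count of 2. Figures were drawn with matplotlib 3.10.9.

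Alternatives were DESeq2 1.42.0, its size factors, upper-quartile factors, library totals alone, limma 3.58.1 (voom with quality weights), other filters, thinned counts, a replicate block and left-out libraries. Named were all 8 genes, up to 3 higher and 3 lower genes per list by adjusted p, genes set by name (among them Sptb, Fgf11, Fgf14, Gja1 and Slc8a1) and the 2 genes most alike each of the 8 on each measure; some of these are not reported here. The genes, lists and tests were chosen with earlier results of these data known.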

Additional observations from a re-analysis of the deposited data

Results flagged for a closer look

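Of 32 groups of 5 libraries looked at, 3 held a library far from the others of its group by Dixon's criterion; chance marks about 1 group in 20. For Fgf12 reads per Fgf13 read, Sham replicate 1 was the lowest Sham library at 4.01, with the next at 4.99. For Sptan1 reads per Sptbn1 read, Sham replicate 1 was the highest Sham library at 0.430, with the next at 0.372. For Ank2 reads per Sptbn1 read, TAC replicate 1 was the highest TAC library at 0.197, with the next at 0.144. In the first case the library lay away from the other group, and in the other two towards it without reaching its range. The call of each of these 3 ratios held in every fit that left out a library. Sham replicate 1 is also among the shallow libraries, with 17117306 to 17154462 counts in Sham replicates 1 and 2.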

How the results depend on the processing

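The number of all genes called ran from 7972 to 9670 over the alternatives, against 8616. All 8 anchor genes were called under each alternative except library totals alone, where 5 were called: Ank3 at -0.15 (adjusted p = 0.12) and Fgf12 at -0.13 (adjusted p = 0.25) lost their call, and Sptbn1 turned to 0.060 (adjusted p = 0.59). With that scaling Cast (0.068), Capn1 (0.091), Slc8a1 (0.24), Guf1 (0.060), Elp4 (0.20) and Apip (0.031) also changed sign, as the median of all genes moved to 0.37. Every other alternative kept a scaling by TMM, DESeq2 or upper-quartile factors. Calls under those alternatives therefore cannot show whether what such a scaling assumes holds here. Leaving out a library in turn kept 8 calls, with Ank1 between -0.94 and -0.77, Ank2 between -1.11 and -1.002, Ank3 between -0.55 and -0.47, Sptan1 between 0.26 and 0.34, Sptbn1 between -0.33 and -0.25, Fgf12 between -0.54 and -0.41, Fgf13 between -1.36 and -1.16 and Tmem65 between -1.34 and -1.19. Over the same fits Tmem65/Gja1 ran between -0.87 and -0.62, Ank1/Ank3 between -0.45 and -0.29, Ank3/Sptbn1 between -0.26 and -0.17 and Ank1/Ank2 between 0.15 and 0.27 on the log2 scale. In that order, 5, 9, 8 and 9 of the 10 fits stayed on the same side of the threshold. Without both shallow Sham libraries Tmem65/Gja1 was -0.73 (exact permutation, adjusted p = 0.0857). No pairing by replicate number was visible in expression. Deviations of same-numbered libraries correlated at -0.0355, -0.0184, 0.0796, 0.00292 and 0.0234, and Sham replicate 3 was the only library matched best by its own number. The sample titles do not say whether same-numbered libraries were handled together, and these values cannot show it. With the replicate block 8020 genes were called, and the 8 anchor genes kept their calls. Sign flips within same-numbered libraries cannot go below p = 0.0625 (exact), so no ratio could pass in the replicate block. There Fgf12/Fgf13 (0.78), Ank2/Ank3 (-0.54), Sptan1/Sptbn1 (0.59), Ank2/Sptbn1 (-0.75) and Tmem65/Gja1 (-0.74) each had an adjusted p of 0.0833 (exact sign flips). Depth did not limit the 8 genes: thinned to the shallowest library, each was still called.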
